A study of Mus musculus with 12 samples.

Results

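The 31 genes described here encode the enzymes that break down leucine, isoleucine and valine, the branched chain amino acids, together with the kinase and the phosphatase that control the pathway's committed step. They were taken from a list of names, drawn up with earlier results of these data known, and make up 31 of the 22630 genes in the tables. All 31 were among the 17561 genes with enough reads to be tested. The lowest read count of any of them in any tumor was 68, for Abat.

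Expression was measured by RNA sequencing of 12 subcutaneous tumors grown from KCip53-1, a mouse pancreatic cancer line, in NSG mice that were 8 to 10 weeks old. NSG mice are immunodeficient hosts without mature lymphocytes. The line came from a KCip53 mouse with the alleles R26 rtTa/rtTa, TREp53 R270H and Ptf1a-Cre, which all groups share, and the mutant p53 R270H transgene required doxycycline (dox) in the drinking water. Ptf1a-Cre acts in the pancreatic epithelium, and the transgene is therefore a feature of the injected cells and not of the host. The 4 no-dox tumors received 0 days of dox, the 4 plus-dox tumors 36 days of dox at 0.2 g/l in 5% sucrose, and the 4 off-dox tumors 33 days of the same dox followed by 3 days without it, as the sample labels give these times. The study's text describes dox removal when tumors could be felt, so the time without dox rests on the labels alone. Each tumor started from 500000 injected cells, and each mouse carried 2 tumors. All tumors descend from 1 cell line. Which tumors shared a mouse is not given, so that tumors were treated as independent and p-values are too small if they were not. RNA came from whole, unsorted tumors, in which fewer cells of a type and less RNA per cell cannot be told apart. No tumors without the transgene received dox, and sucrose is recorded only for the dox-exposed tumors. Effects of dox itself, of sucrose and of p53 R270H therefore cannot be told apart.

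The pathway starts with a transaminase that turns each amino acid into its ketoacid, and continues with the branched chain ketoacid dehydrogenase complex of the mitochondrion, which removes carbon dioxide irreversibly. After that step the 3 amino acids follow separate branches, several of whose enzymes also serve fatty acid oxidation. Leucine ends as acetyl-CoA and acetoacetate, valine as propionyl-CoA and isoleucine as both acetyl-CoA and propionyl-CoA, and propionyl-CoA is carried on to succinyl-CoA. Pancreatic tumors are known for altered handling of branched chain amino acids, which supply both nitrogen and carbon.

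The tumors held between 19845923 and 33137609 reads counted on genes. Of all mapped reads, 88.4% to 89.4% fell on genes without dox, 82.2% to 87.1% on dox and 81.1% to 85.8% off dox, which sets every no-dox tumor apart from the other 8. Levels are given as RPKM, that is, reads scaled by exon length and by the mapped reads of the library, which allows levels of different genes to be compared. Differences are given as log2 fold changes from edgeR, which rescales the libraries by the trimmed mean of M values (TMM). Trp53, to which transgene reads may be assigned, did not separate the groups, with a range of 40.1 to 57.4 RPKM without dox, 40.4 to 56.0 on dox and 41.6 to 45.4 off dox. The epithelial markers, among them Krt8 and Krt18, summed to 2280 to 3033 RPKM without dox, 1363 to 2003 on dox and 1048 to 2608 off dox. Plus-dox tumor 2 and off-dox tumor 4 had the lowest duct or progenitor and acinar marker sums, 33.7 and 49.4 RPKM and 6.73 and 8.41 RPKM, respectively.

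Across the pathway, most members lay lower in both dox-exposed groups than in no-dox tumors. Between off-dox and no-dox tumors, 10 of the 31 members fell at a Benjamini-Hochberg adjusted p under 0.1 (edgeR, over all genes tested), against 1.38% of all genes that fell by this rule, and 0 rose. The 10 were Bckdha, Bckdk, Mccc2, Acat1, Oxct1, Hadh, Hadhb, Pcca, Pccb and Mut, which belong to 5 of the 8 groups of steps below. The full criteria for differential expression added a change over 1.5-fold, a mean level over 0.25 RPKM and a length over 250 bp. By these criteria 3 members, Hadh, Pcca and Pccb, were differentially expressed, against 1.34% of all genes in either direction and 0.307% of all genes that were lower. The median log2 fold change of the members was -0.34, which is 78.9% of the no-dox level, beside 0.0072 over all genes tested. Bcat1 and Abat had a fold change above 0 in this comparison, and both changed sign in other fits. The count of 10 became 17 without off-dox tumor 1, beside 4.73% of all genes. It became 0 without any 1 of the no-dox tumors, off-dox tumors 2, 3 and 4 or plus-dox tumors 3 and 4. In these fits with 0 members, 0 of all genes passed in either direction, except 1 without no-dox tumor 3 and 23 without plus-dox tumor 3. The member count was 19 with DESeq2, another count model, where 4.66% of all genes were lower by this rule with moderated fold changes and 4.78% without, and 19 with limma-voom, where 6.82% were. It was 0 when only the 8 tumors compared were fitted, where 3 of all genes passed in either direction. The member count was also 0 with the replicate number as a block, with the epithelial marker sum as a covariate or with the share of reads on genes as a covariate. In the latter 3 fits 0% of all genes were lower at an adjusted p under 0.1.

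Between plus-dox and no-dox tumors no member passed the adjusted test. Here 0 members and 0% of all genes were differentially expressed, with a smallest adjusted p of 0.32 both among the members and over all genes. Other models gave 4 members with DESeq2, beside 0.376% of all genes with moderation and 0.421% without, and 6 members with limma-voom, beside 1.04%, that were lower at an adjusted p under 0.1. At an unadjusted p under 0.05, 17 members were lower in plus-dox tumors and 0 higher, where 5.67% of all genes were lower by the same rule. The count of 17 became 11 without plus-dox tumor 3, beside 3.14% of all genes. The median log2 fold change of the members was -0.32, or 80.4% of the no-dox level, beside 0.013 over all genes tested. The same unadjusted rule gave 21 members lower and 0 higher in off-dox against no-dox tumors, beside 9.48% of all genes lower. Both comparisons use the same 4 no-dox tumors, so the second is no repeat of the first.

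**Figure D1:**
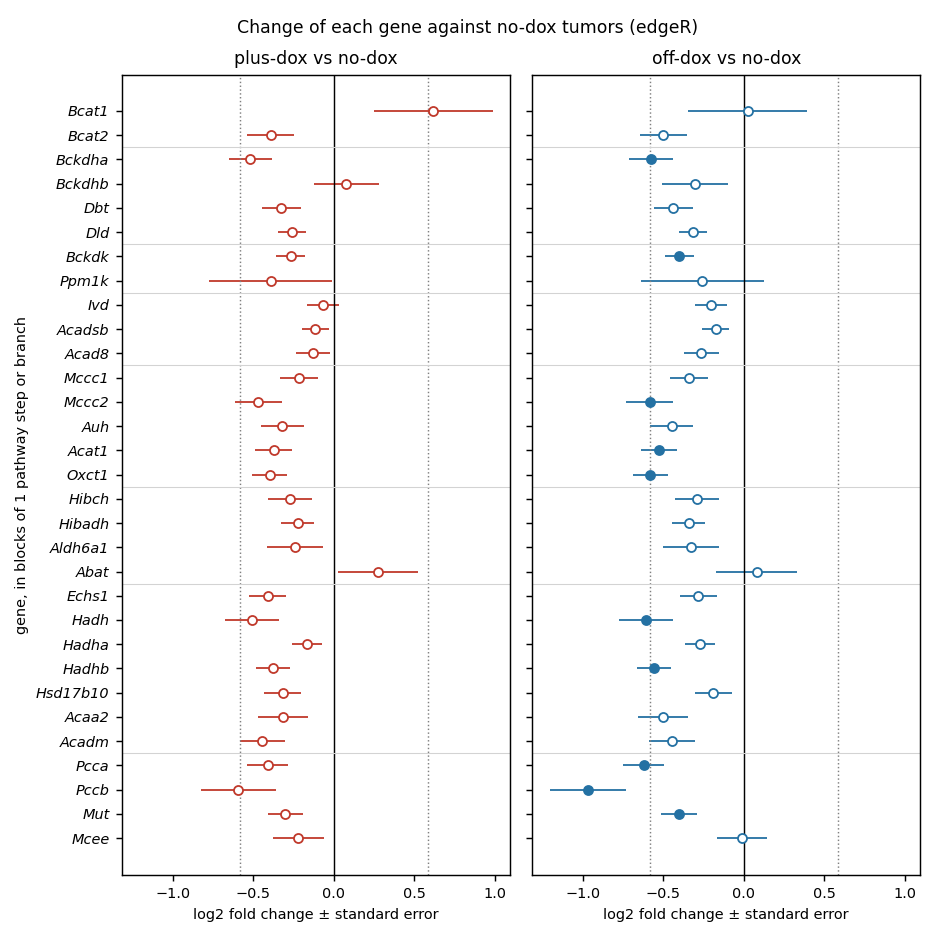
Log2 fold change of each of the 31 genes (horizontal axis, points with standard error) in plus-dox against no-dox tumors on the left and in off-dox against no-dox tumors on the right, 4 tumors per group. Filled points had an adjusted p under 0.1 and dotted lines mark 1.5-fold. 28 of 31 points on the left and 29 of 31 on the right lie below 0, and 0 points on the left and 10 on the right are filled.

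The separation of single tumors was examined on TMM-scaled log2 CPM, that is, log2 counts scaled by library size. For 20 of 31 members every off-dox tumor lay below every no-dox tumor, which held for 6.61% of the 14548 genes with a mean over 0.25 RPKM. For 14 members every plus-dox tumor lay below every no-dox tumor, where 5.16% of genes did. All 14 were also below in the off-dox group: Bckdha, Dbt, Dld, Bckdk, Mccc2, Acat1, Oxct1, Hadh, Hadha, Hadhb, Acaa2, Acadm, Pcca and Mut. Both counts use the same no-dox tumors, and the share of all genes below in both groups was not computed. Whether this overlap is particular to the members was therefore not tested. On the RPKM scale the count was again 20 for off-dox tumors, beside 7.46% of genes, but 7 for plus-dox tumors, beside 3.90% of genes, so that the plus-dox count depends on the scale. The tumors of a group were not alike. Plus-dox tumor 1 had 15 members below the lowest no-dox tumor and plus-dox tumors 2, 3 and 4 had 24, 27 and 21. Off-dox tumors 1 to 4 had 24, 23, 26 and 27. Over all genes, 16.8% to 34.4% lay below the lowest no-dox tumor in these 8 tumors. Off-dox tumor 1, with 24 members below, had an epithelial marker sum of 2608 RPKM, inside the no-dox range. How marker sums bear on these counts was not tested.

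**Figure D2:**
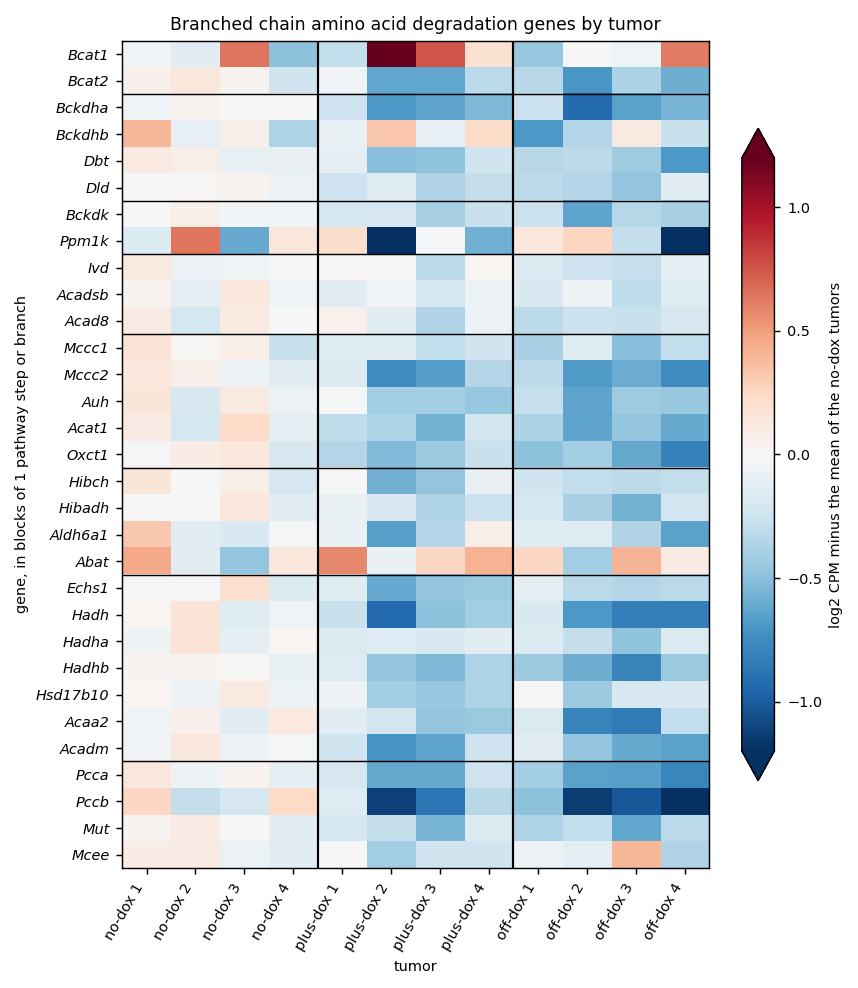
Log2 CPM of each gene (rows, in blocks of 1 step or branch) in each of the 12 tumors (columns) minus its mean over the 4 no-dox tumors, blue below and red above that mean, with colors capped at 1.2 on either side. Most rows are blue in the plus-dox and off-dox columns, plus-dox tumor 1 is the palest of those columns, and Bcat1, Bckdhb, Ppm1k, Abat and Mcee vary within groups.

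The first step gave different values for its pair of enzymes. Bcat2, the mitochondrial branched chain transaminase, was the main form in every tumor, at 4.95 to 25.1 times the RPKM of Bcat1, the cytosolic form. Bcat2 (chr7:52825523-52845080, mm9) was at 27.1, 28.3, 24.9 and 20.5 RPKM in no-dox tumors 1 to 4, at 24.9, 16.0, 15.2 and 20.5 in plus-dox tumors, and at 19.8, 15.2, 19.1 and 15.7 in off-dox tumors. All off-dox tumors lay below all no-dox tumors, while plus-dox tumor 1 was inside the no-dox range. The log2 fold change of Bcat2 was -0.50 ± 0.15 (standard error) off dox, with an edgeR adjusted p of 0.11 that did not pass, and -0.39 ± 0.15 on dox. Bcat1 (chr6:144942355-145024677, mm9) was at 1.21, 1.13, 1.81 and 0.823 RPKM in no-dox tumors, at 0.993, 3.24, 1.91 and 1.39 in plus-dox tumors, and at 0.865, 1.17, 1.15 and 1.75 in off-dox tumors. Its highest value was in plus-dox tumor 2, and all groups overlapped. The log2 ratio of Bcat1 to Bcat2 was higher by 0.93 in plus-dox than in no-dox tumors (-3.46 ± 1.02 against -4.39 ± 0.41, SD, n = 4 each), which was within the spread between tumors (2-sided exact permutation test, p = 0.23, adjusted over the 3 comparisons 0.34). With 4 against 4 tumors this test cannot go below 0.029. The ratio differed by 0.53 between off-dox and no-dox tumors (exact p = 0.20) and by -0.40 between off-dox and plus-dox tumors (exact p = 0.51). With 1 tumor left out at a time these differences in the log2 ratio ran from 0.54 to 1.32, 0.30 to 0.75 and -0.80 to -0.017. The first and the third were nearest to 0 without plus-dox tumor 2, and the second without off-dox tumor 4.

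The ketoacid dehydrogenase complex consists of a decarboxylase made of Bckdha and Bckdhb, the transacylase Dbt and the dehydrogenase Dld, the last of which is shared with the pyruvate and oxoglutarate dehydrogenases. Bckdha (chr7:26414871-26443780, mm9) was at 37.7, 39.6, 36.3 and 36.2 RPKM in no-dox tumors, at 32.3, 22.8, 22.7 and 26.4 in plus-dox tumors, and at 31.1, 19.4, 23.8 and 24.0 in off-dox tumors. Tumor 1 of each dox-exposed group was its highest, yet still below every no-dox tumor. Bckdha fell off dox with a log2 fold change of -0.58 ± 0.14 (edgeR adjusted p = 0.087), just short of 1.5-fold, and had the smallest unadjusted p of the members on dox, 0.0025, with a log2 fold change of -0.52 ± 0.14 (adjusted p = 0.32). Its partner Bckdhb (chr9:83842388-84017847, mm9) was at 9.60, 6.75, 7.05 and 5.24 RPKM in no-dox tumors, at 6.71, 8.70, 6.17 and 8.39 in plus-dox tumors, and at 4.31, 5.37, 7.51 and 5.50 in off-dox tumors. These values overlapped in all 3 groups, with log2 fold changes of 0.08 ± 0.20 on dox and -0.30 ± 0.21 off dox. Dbt and Dld lay below every no-dox tumor in all 8 dox-exposed tumors on the log2 CPM scale, with adjusted p-values of 0.10 off dox that missed the limit.

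The complex is switched off by the kinase Bckdk and switched on again by the phosphatase Ppm1k. Bckdk (chr7:135047587-135053178, mm9) was at 28.3, 29.6, 25.8 and 25.9 RPKM in no-dox tumors, at 24.2, 23.4, 19.5 and 23.3 in plus-dox tumors, and at 22.8, 17.3, 21.4 and 19.8 in off-dox tumors. Neither dox-exposed group overlapped with the no-dox tumors. Bckdk fell off dox by 0.40 on the log2 scale (standard error 0.09, edgeR adjusted p = 0.083), and its log2 fold change on dox was -0.27 ± 0.09. Ppm1k ranged from 1.74 to 4.43 RPKM without dox, 1.08 to 3.26 on dox and 1.09 to 3.23 off dox, which overlapped, with its lowest values in plus-dox tumor 2 and off-dox tumor 4. The kinase that inhibits the complex and the catalytic subunit Bckdha both fell in off-dox tumors.

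The next step is taken by 3 acyl-CoA dehydrogenases, Ivd for leucine, Acadsb for isoleucine and Acad8 for valine. They showed the smallest median differences of the enzyme groups downstream of the transaminases, with log2 fold changes of -0.13 to -0.07 on dox and -0.26 to -0.17 off dox, and none passed the adjusted test. Acad8 was the only 1 of the 3 with an unadjusted p under 0.05 (0.030, off dox), and its level was 9.77 ± 0.94 RPKM without dox and 7.97 ± 0.11 off dox (SD, n = 4 each).

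In the leucine branch, all 5 members had an unadjusted p under 0.05 off dox and 3 of them, Mccc2, Acat1 and Oxct1, fell at an adjusted p under 0.1. Oxct1, the CoA transferase that makes acetoacetate usable as fuel, had the smallest p of all 31 members off dox. Oxct1 (chr15:3985260-4105344, mm9) was at 46.5, 49.9, 48.0 and 38.6 RPKM in no-dox tumors, at 36.5, 31.02, 31.7 and 38.8 in plus-dox tumors, and at 32.1, 33.7, 29.6 and 24.5 in off-dox tumors. The off-dox tumors were all below the no-dox tumors, whereas plus-dox tumor 4 reached no-dox tumor 4 in RPKM. Its log2 fold change was -0.58 ± 0.11 off dox (edgeR adjusted p = 0.079) and -0.40 ± 0.11 on dox (adjusted p = 0.32). Acat1, the mitochondrial thiolase that serves leucine, isoleucine and ketone bodies (chr9:53388627-53418455, mm9), was at 28.4, 22.8, 29.0 and 23.0 RPKM in no-dox tumors, at 21.2, 19.5, 16.3 and 22.5 in plus-dox tumors, and at 19.6, 16.3, 18.4 and 15.9 in off-dox tumors. All 8 dox-exposed tumors lay below the no-dox range of Acat1, and it fell off dox with a log2 fold change of -0.53 ± 0.11 (adjusted p = 0.083). Mccc2 and Mccc1 encode the subunits of the biotin-dependent methylcrotonyl-CoA carboxylase, and their log2 fold changes off dox were -0.58 ± 0.15 and -0.34 ± 0.12. Auh, the hydratase of this branch, had a log2 fold change of -0.45 ± 0.13 off dox with an adjusted p of 0.11.

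The valine branch had no member that passed the adjusted test in either comparison. Hibch and Hibadh, which act on 3-hydroxyisobutyryl-CoA and 3-hydroxyisobutyrate, had log2 fold changes of -0.29 and -0.34 off dox, and Aldh6a1, the methylmalonate semialdehyde dehydrogenase, of -0.33. Abat, a transaminase best known for breaking down the neurotransmitter GABA, was the least expressed member at 0.579 to 1.19 RPKM without dox, 0.770 to 1.27 on dox and 0.610 to 1.10 off dox, with groups that overlapped.

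Among the 7 enzymes shared with fatty acid oxidation, Hadh and Hadhb fell off dox. Hadh, the short chain 3-hydroxyacyl-CoA dehydrogenase (chr3:130936342-130974955, mm9), was at 64.6, 70.8, 53.9 and 57.8 RPKM in no-dox tumors, at 52.4, 31.7, 41.1 and 47.4 in plus-dox tumors, and at 53.8, 37.6, 34.5 and 32.8 in off-dox tumors. Off-dox tumor 1 was only just below the lowest no-dox tumor, and the other off-dox tumors were well below it. The log2 fold change of Hadh off dox was -0.61 ± 0.17, with an adjusted p of 0.0996 that lay at the limit. Hadhb, the thiolase subunit of the mitochondrial trifunctional protein (chr5:30481862-30511123, mm9), was at 57.9, 57.5, 53.3 and 49.7 RPKM in no-dox tumors, at 50.1, 38.9, 35.3 and 43.2 in plus-dox tumors, and at 40.1, 35.8, 31.3 and 38.0 in off-dox tumors. Hadhb did not overlap between off-dox and no-dox tumors, and plus-dox tumor 1 reached no-dox tumor 4 in RPKM. Its log2 fold change was -0.56 ± 0.11 off dox (adjusted p = 0.079) and -0.38 ± 0.11 on dox (adjusted p = 0.32). The partner subunit Hadha starts 341 bases away in the opposite direction on chromosome 5 and had log2 fold changes of -0.27 ± 0.09 off dox and -0.17 ± 0.09 on dox. Hadha went from 27.1 ± 2.9 RPKM without dox to 22.0 ± 2.0 RPKM off dox (SD, n = 4 each), an adjusted p of 0.14.

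Echs1, the short chain enoyl-CoA hydratase (chr7:147291622-147302322, mm9), was at 98.1, 96.4, 105 and 82.0 RPKM in no-dox tumors, at 88.1, 61.3, 64.9 and 71.6 in plus-dox tumors, and at 87.2, 74.9, 73.8 and 71.8 in off-dox tumors. Tumor 1 of both dox-exposed groups lay inside the no-dox range. The log2 fold change of Echs1 was -0.41 ± 0.12 on dox (adjusted p = 0.32) and -0.28 ± 0.12 off dox (adjusted p = 0.20), so that its mean was further from no-dox on dox than off dox. Oxct1, Bckdha and Echs1 were picked out for this pathway by the study from these same tumors, so their direction is no independent evidence. Hsd17b10, which acts in isoleucine breakdown, was the most abundant member at 110 ± 6.4 RPKM in no-dox tumors (SD, n = 4) and had log2 fold changes of -0.31 and -0.19. Acaa2 and Acadm, a thiolase and the medium chain acyl-CoA dehydrogenase of fatty acid oxidation, had log2 fold changes of -0.50 and -0.45 off dox with adjusted p-values of 0.12 and 0.13.

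The last steps, from propionyl-CoA to succinyl-CoA, held the largest change of the pathway. Pccb and Pcca encode the beta and alpha subunits of the biotin-dependent propionyl-CoA carboxylase. Pccb (chr9:100882457-100935294, mm9) was at 25.4, 17.4, 17.4 and 23.7 RPKM in no-dox tumors, at 19.0, 9.34, 10.6 and 16.8 in plus-dox tumors, and at 14.6, 9.25, 10.1 and 8.10 in off-dox tumors. The off-dox tumors were all below the no-dox tumors, while plus-dox tumor 1 was inside the no-dox range. Pccb fell off dox to 0.511 times its no-dox level, a log2 fold change of -0.97 ± 0.24 (edgeR adjusted p = 0.088), and its log2 fold change on dox was -0.59 ± 0.24 (adjusted p = 0.34). Pcca (chr14:122933550-123289166, mm9) was at 13.5, 11.6, 11.7 and 10.5 RPKM in no-dox tumors, at 10.5, 7.58, 7.25 and 10.1 in plus-dox tumors, and at 8.82, 7.42, 7.47 and 6.46 in off-dox tumors. All 8 dox-exposed tumors lay below the no-dox range of Pcca, plus-dox tumor 1 only just. Pcca fell off dox with a log2 fold change of -0.62 ± 0.13 (adjusted p = 0.082) and had -0.41 ± 0.13 on dox. Mut, the vitamin B12-dependent methylmalonyl-CoA mutase, fell off dox by 0.40 on the log2 scale (standard error 0.11, adjusted p = 0.098). Mcee, the epimerase between the carboxylase and the mutase, had a log2 fold change of -0.01 ± 0.16 off dox, with 16.4 to 29.1 RPKM off dox and 19.7 to 24.6 without dox.

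**Figure D3:**
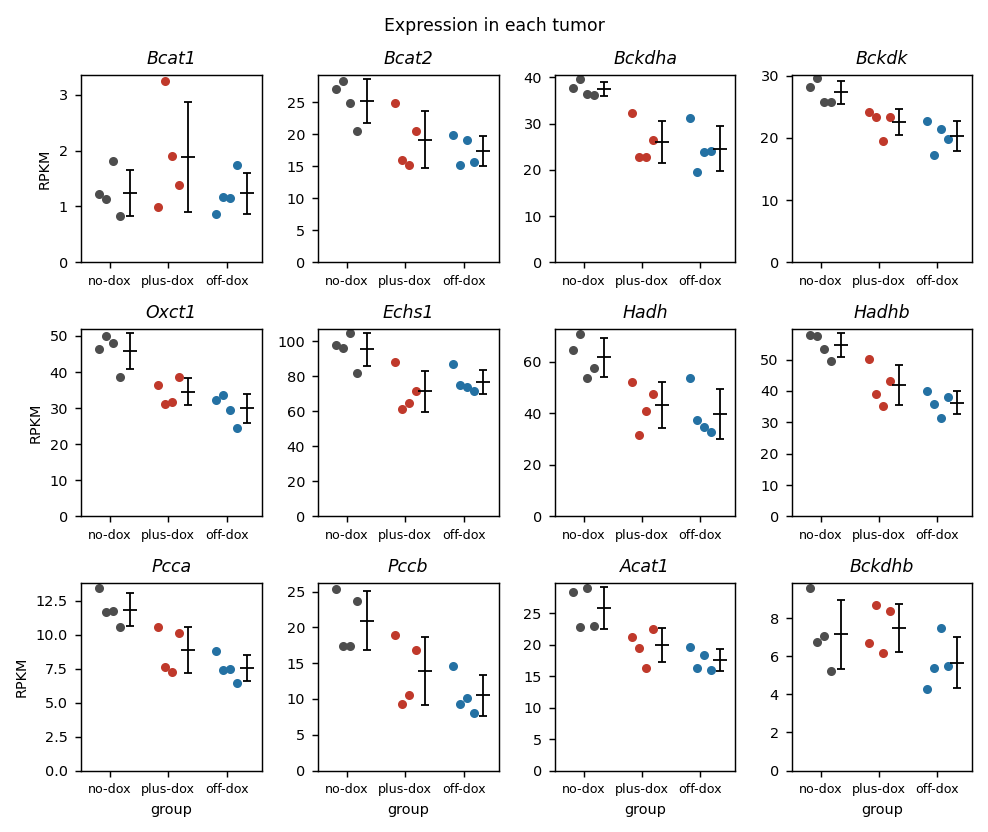
RPKM (vertical axes, from 0) in each tumor for the 12 members described tumor by tumor, with the group on the horizontal axis, points in tumor order 1 to 4 from left to right, and a bar at the mean with its SD (n = 4). Off-dox points of Pccb lie between 8.10 and 14.6 RPKM and no-dox points between 17.4 and 25.4, whereas Bcat1 and Bckdhb overlap in all groups.

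Between off-dox and plus-dox tumors no difference in any member passed a test. Differentially expressed were 0 members and 0% of all genes, and 0 members had an unadjusted p under 0.05, beside 1.81% of all genes lower off dox by that rule. For 0 members did every off-dox tumor lie below every plus-dox tumor, beside 0.708% of genes. The median log2 fold change was -0.12, with 27 of 31 members below 0. The members with the smallest p were Bckdhb (-0.38 ± 0.21), Hadhb (-0.18 ± 0.11), Oxct1 (-0.18 ± 0.11) and Pcca (-0.21 ± 0.13), each with an edgeR adjusted p of 1. These values do not show that the pathway stayed at its plus-dox level, since a difference of the size of the standard errors could not be detected.

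Upstream sequence was searched for the members in the promoter table, and is shown for 3 that were lower off dox. The 250 bases before the RefSeq start (GRCm38.p6) were searched on both strands for AAGGTCA, a nuclear receptor element, GCATGCGC, the core of the NRF1 motif, TGACGTCA, the cyclic AMP response element, CACGTG, the E-box, and CCAAT, the CCAAT box. None of these motifs contains another. Of the members, 26 matched the promoter table, while Acaa2, Dbt, Abat, Mut and Acat1 did not. A member was counted where any of its promoters in the table held the motif, whereas the shares are per promoter. Members with several promoters had more chances of a match, so that these counts and shares are not in like units. CCAAT was present upstream of 15 of the 26, beside 33.8% of all 32851 promoters. The NRF1 core was present upstream of 2 members, Acadm and Pccb, beside 2.26% of promoters, AAGGTCA upstream of 1, Acadm, beside 4.08%, and the E-box upstream of 1, Mccc2, beside 6.02%. The cyclic AMP response element was present upstream of 0, beside 1.55%. Shown are Oxct1, the member with the smallest p off dox, and Hadh and Pccb, both differentially expressed and with a single promoter in the table. Capitals mark CCAAT in Hadh, 239 bases before the start, and the NRF1 core in Pccb, read on the opposite strand 35 bases before the start.
Oxct1 (GRCm38.p6, chr15:4026178-4026427, plus strand): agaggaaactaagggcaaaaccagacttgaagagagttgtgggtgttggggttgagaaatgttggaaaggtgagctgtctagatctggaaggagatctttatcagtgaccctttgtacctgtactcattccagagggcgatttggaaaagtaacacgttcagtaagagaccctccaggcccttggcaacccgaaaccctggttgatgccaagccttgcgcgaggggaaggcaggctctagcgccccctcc
Hadh (GRCm38.p6, chr3:131272102-131272351, minus strand): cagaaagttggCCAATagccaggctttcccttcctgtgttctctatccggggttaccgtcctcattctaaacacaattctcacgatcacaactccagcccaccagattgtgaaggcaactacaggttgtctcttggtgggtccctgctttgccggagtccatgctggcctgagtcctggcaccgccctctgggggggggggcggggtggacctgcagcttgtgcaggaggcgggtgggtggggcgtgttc
Pccb (GRCm38.p6, chr9:101034885-101035134, minus strand): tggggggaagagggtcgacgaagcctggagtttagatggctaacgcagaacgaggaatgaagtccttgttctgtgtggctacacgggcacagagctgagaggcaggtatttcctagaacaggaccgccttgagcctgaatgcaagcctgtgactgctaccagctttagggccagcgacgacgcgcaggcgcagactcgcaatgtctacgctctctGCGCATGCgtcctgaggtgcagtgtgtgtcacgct
The 3 sequences share none of the searched motifs with one another, which says only that these letters are not common to the 3 windows.

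Most genes next to the pathway also had fold changes below 0. A list of 30 further genes held transporters, cofactor enzymes, electron transfer proteins, ketone body enzymes and alternative dehydrogenases, of which 29 were tested. Of the 29, 24 had a log2 fold change below 0 and 5 above 0 off dox, and 22 and 7 on dox. Off dox, 11 of them had an unadjusted p under 0.05 and were lower, beside 9.48% of all genes, and 1 was higher, with a median log2 fold change of -0.25, and 1 fell at an adjusted p under 0.1, Aldh9a1, an aldehyde dehydrogenase (-0.47 ± 0.10, adjusted p = 0.083). The next smallest p-values were for Etfb, a subunit of the electron carrier of the acyl-CoA dehydrogenases (-0.53 ± 0.15, adjusted p = 0.11), and Acaa1a, a peroxisomal thiolase (-0.48 ± 0.15, adjusted p = 0.12). On dox, 7 were lower, beside 5.67% of all genes, and 0 higher at an unadjusted p under 0.05, with a median of -0.21 and the smallest p-values for Aldh9a1 (-0.35 ± 0.10), Etfb (-0.45 ± 0.15) and Acads, the short chain acyl-CoA dehydrogenase (-0.33 ± 0.12), each with an adjusted p over 0.3. Between off-dox and plus-dox tumors, 1 was lower, Aldh7a1 (-0.32 ± 0.08, unadjusted p = 0.0018, adjusted p = 1). Of 16 genes of the tricarboxylic acid cycle, which takes up the pathway's end products, 9 were lower off dox at an unadjusted p under 0.05, 2 of them at an adjusted p under 0.1, with a median of -0.26 and 15 of 16 values below 0. On dox 5 of the 16 were lower by the unadjusted rule, with a median of -0.15 and 13 of 16 values below 0. The shares of all genes are those just given for each comparison. Whether the 31 members differ from these neighboring lists was not tested.

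Marker levels of several cell types also differed between the tumors. Of 8 epithelial markers, 3 lay lower in every plus-dox than in every no-dox tumor in RPKM and in log2 CPM. Off dox 1 did so in RPKM, Krt8, at 318 to 810 RPKM against 830 to 972 without dox, and 0 in log2 CPM. The 7 adipocyte markers, from a cell type that uses branched chain amino acids strongly, summed to 17.8 to 1096 RPKM without dox, 29.7 to 693 on dox and 38.5 to 323 off dox. No-dox tumors 2 and 4 were at 58.6 and 17.8 RPKM in these markers, and no-dox tumors 1 and 3 at 1096 and 898. The members' median differed from the no-dox mean, which these same tumors make up, by 0.01 and -0.07 in the former and by 0.04 and 0.02 in the latter. Whether adipocyte content bears on the members was not tested. The 7 skeletal muscle markers, which stand for a tissue with high Bcat2, summed to 10.3 to 180 RPKM without dox, 132 to 420 on dox and 11.4 to 1162 off dox, and the 7 fibroblast markers to 1005 to 1866, 1473 to 2912 and 1158 to 1429. Of the 4 acinar markers, Cel was at 0 in all tumors. The 4 neutrophil markers summed to 22.8 to 34.6 RPKM without dox, 33.5 to 56.6 on dox and 23.5 to 49.2 off dox. Csf3r and Cxcr2, 2 of these 4, were above every no-dox tumor in all 8 dox-exposed tumors, with no-dox maxima of 4.47 and 1.48 RPKM and minima in the others of 4.55 and 1.78 RPKM. The 5 T or NK cell markers summed to 0.515 to 2.10 RPKM without dox, 2.94 to 3.62 on dox and 1.68 to 6.16 off dox, so that the sums did not overlap between no-dox and plus-dox tumors. Nkg7, a cytotoxic granule gene and 1 of these 5, was at most 0.385 RPKM without dox and at least 0.501 RPKM in all 8 other tumors. With the summed epithelial markers as a covariate, 4 members on dox and 15 off dox had an unadjusted p under 0.05 and lay lower, beside 1.98% and 4.94% of all genes. With the share of mapped reads on genes as a covariate, 1 member in each comparison did, beside 0.638% and 0.740% of all genes, and the medians were -0.17 and -0.18, but this share does not overlap between no-dox and the other tumors, so that it and dox cannot be told apart. The epithelial sums likewise did not overlap between no-dox tumors, at least 2280 RPKM, and plus-dox tumors, at most 2003 RPKM. In that comparison the epithelial covariate and dox cannot be told apart either. The part of tumor composition in the members' differences was not tested further.

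**Figure D4:**
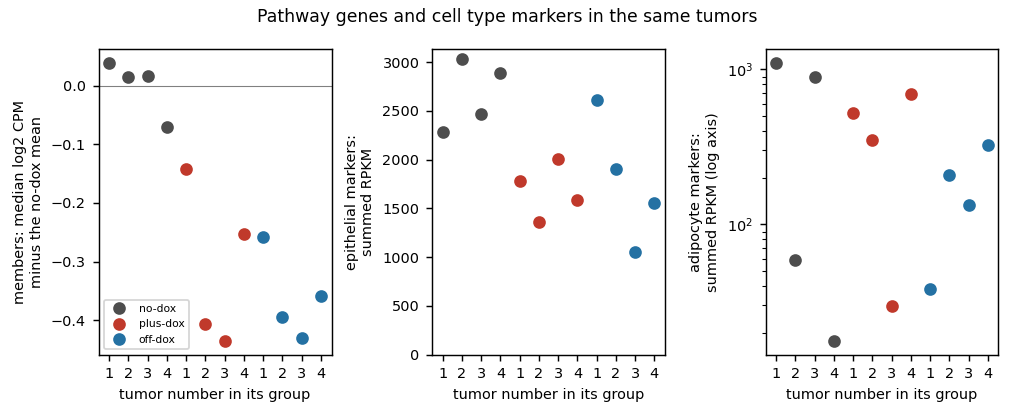
The 12 tumors, numbered 1 to 4 within each group, with the members' median log2 CPM minus the no-dox mean (left), summed RPKM of 8 epithelial markers (middle) and summed RPKM of 7 adipocyte markers on a log axis (right). The members' medians run from -0.07 to 0.04 in no-dox tumors and from -0.43 to -0.14 in the others, while epithelial sums overlap between no-dox and off-dox tumors and adipocyte sums overlap in all groups.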

How the data were processed

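RNA sequencing of the 12 tumors was used. The authors mapped 50-bp reads to mm9, naming TopHat 1.4.1 and Bowtie 0.12.8 in the submitters' processing notes, and counted reads over unambiguous exonic spans of RefSeq genes without strand. The deposited values are expected counts, which are not normalized, and RPKM of the authors, per exonic length and mapped reads. Counts were rounded and tested with edgeR 4.0.16 (TMM, at least 10 counts summed over 12 tumors, quasi-likelihood test, 3 groups in 1 fit), with Benjamini-Hochberg adjustment over 17561 genes. Limits for differential expression were those of the study's methods, which used DESeq2. Fold changes are positive where the group named first is higher, ± is the standard error unless marked SD, and log2 CPM used a prior count of 2. The members and lists were chosen with earlier results of these data known. All 31 members are accounted for, and values of every tumor are given for Bcat1, Bcat2, Bckdha, Bckdk, Oxct1, Echs1, differentially expressed members and those with the 4 smallest p-values of each comparison. Other pathway genes are named where among the 3 smallest p-values of their list. Hmgcs1 is not analysed here, and 1 further allele of the line is not reported here. Marker genes of 10 cell types were summed per tumor.

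Alternatives were DESeq2 1.42.0 with and without moderation, limma 3.58.1 on log2(RPKM + 0.1) and as voom with sample weights, RLE normalization, other count filters, only the 8 tumors compared, an adjusted p under 0.05, the replicate number as a block, each tumor left out in turn, and plus-dox tumor 2 and off-dox tumor 4 left out together. The epithelial marker covariate, the share of reads on genes as covariate and the RPKM scale for group overlap were added after seeing the data. Only the edgeR fit of plus-dox against no-dox tumors was run on simulated counts with known changes, which were larger than those of the members. The other fits and comparisons were not tested in this way. All 66 pairs of libraries differed by more than sampling noise in their counts (chi-square of at least 14.7 per gene), so that no library was taken as a copy of another. Work used R 4.3.3, Python 3.11.15, numpy 2.4.6, scipy 1.17.1, pandas 2.3.3 and matplotlib 3.10.9.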

Additional observations from a re-analysis of the deposited data

Results flagged for a closer look

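In 4 of the 129 groups of 4 tumors examined, 1 tumor lay far from the other 3, with a gap to its nearest neighbor that, as a share of the group's range, exceeded Dixon's limit. Chance alone gives about 1 in 20 such groups. Ivd, isovaleryl-CoA dehydrogenase, was lowest in plus-dox tumor 3, with a gap of 0.941 of the range. Auh, the hydratase of the leucine branch, was highest in plus-dox tumor 1, with a gap of 0.900. Echs1 was highest in off-dox tumor 1, with a gap of 0.855, and Hadhb was lowest in no-dox tumor 4, with a gap of 0.838.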

How the results depend on the processing

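The direction of the members' median held in all alternatives, but the calls did not. On dox, 0 genes were differentially expressed, or 90 and 128 with DESeq2 with and without moderation and 112 with limma-voom, with 0 members among them in every fit. Between off-dox and no-dox tumors the 235 genes became 396 and 615 with DESeq2, 641 with limma-voom, 365 with at least 10 counts in every tumor, 471 without plus-dox tumor 2 and off-dox tumor 4, 122 without a count filter, 3 with the 8 tumors alone and 0 with the epithelial covariate, the share covariate, the replicate block or an adjusted p under 0.05. The 3 differentially expressed members became 1 with moderated DESeq2 or no count filter, 5 with limma on log2 RPKM, 7 with limma-voom and 0 with the 8 tumors alone, either covariate, the block or an adjusted p under 0.05. Off-dox against plus-dox tumors gave 4 and 6 genes with DESeq2. In that comparison, members at an unadjusted p under 0.05 numbered 1, 2 and 1 with the epithelial covariate, limma-voom and the share covariate. All of these were lower off dox, where 2.04%, 2.58% and 1.4% of all genes were lower by this rule. The unadjusted rule gave 4 members on dox with the epithelial covariate, beside 1.98% of all genes lower. With the share covariate it gave 1 in either no-dox comparison, beside 0.638% and 0.74% of all genes lower. The medians there were -0.17 and -0.18. Tumors with the same replicate number were on average no more alike (mean correlation of deviations across genes -0.09 over 12 pairs, different numbers 0.04 over 36). Single correlations ran from -0.45 to 0.57 and from -0.68 to 0.67, so that these means cannot exclude a pairing. With the block, 18 and 20 members had an unadjusted p under 0.05 on and off dox, beside 5.05% and 8.71% of all genes lower.

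With 1 tumor left out at a time, differentially expressed genes ran from 0 to 789 off dox, 0 to 3 on dox and 0 to 1 between off-dox and plus-dox tumors, members among them off dox from 0 to 8, and members at an unadjusted p under 0.05 from 18 to 22, 11 to 21 and 0 to 1. The share of all genes lower by the unadjusted rule ran from 6.51% to 11.9%, 3.14% to 8.06% and 1.12% to 2.79% in the same order. The member counts took either direction, whereas these shares are of lower genes only. Bcat1 was counted as higher on dox without plus-dox tumor 1 (log2 fold change 0.84, edgeR unadjusted p = 0.035), where 20 members were lower. It was also counted as higher on dox without no-dox tumor 3 (0.88, edgeR unadjusted p = 0.043). The members' medians ran from -0.41 to -0.33, -0.38 to -0.26 and -0.17 to -0.070. The counts of 789 genes and 8 members came without off-dox tumor 1. Trp53 had log2 fold changes near 0 that changed sign on dox with the epithelial covariate (-0.019), limma-voom (-0.034) and without plus-dox tumor 2 and off-dox tumor 4 (-0.050), and off dox with the share covariate (0.11). Its ranges with 1 tumor left out were -0.046 to 0.12 and -0.14 to 0.0028. The cause of these shifts was not tested.

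Log2 fold changes of members changed sign as follows, and none of these values passed the adjusted test. With the epithelial covariate they were -0.40 for Bckdhb and 0.18 for Ppm1k on dox, and -0.43 for Bcat1, 0.34 for Ppm1k and -0.018 for Abat off dox. With the share covariate they were -0.17 for Bckdhb, 0.086 for Ivd, 0.014 for Hibadh and 0.13 for Acaa2 on dox, and -0.0038 for Bcat1, 0.019 for Ivd, 0.14 for Hsd17b10 and 0.11 for Acaa2 off dox. With limma-voom they were -0.021 for Bckdhb on dox and -0.14 for Abat off dox, with limma on log2 RPKM -0.0033 for Bcat1, and with at least 10 counts in every tumor 0.014 for Mcee. Without plus-dox tumor 2 and off-dox tumor 4 they were -0.012 for Bckdhb on dox, and -0.21 for Bcat1 and 0.094 for Mcee off dox. With 1 tumor left out, Bckdhb ran from -0.032 to 0.23 and Ivd from -0.098 to 0.011 on dox, and Bcat1 from -0.22 to 0.29, Abat from -0.052 to 0.26 and Mcee from -0.18 to 0.089 off dox. Members were read from at least 68 counts per tumor, and the parts of counting error and of the spread between tumors in the standard errors were not separated.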
